A study of Rattus norvegicus with 12 samples.

Results

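Trypsin genes and pancreatic acinar enzyme genes were examined in rat colon after neonatal maternal separation (NMS), a stress model in which pups are taken from the dam for part of each day. The genes were the trypsins Prss3, Try10, Prss1 and Prss2 and the acinar enzymes Cpa1, Cela2a and Pnlip, and their members were all non-control probes that carry a listed symbol. Of the 7 genes, 6 had such a probe, and of 30367 probes on the arrays, 7 belonged to them: 4 to trypsins and 3 to acinar enzymes. No probe was named Prss2. The trypsins had been chosen because their signal was high in separated rats, so their group differences below are a description without a test. The acinar enzymes were listed to see whether they moved with the trypsins.

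All animals were male Wistar rats that underwent colorectal distension, and the colon segment was collected from 12 of them at postnatal day 60, 4 per group. Group C rats stayed with the dam and received a placebo of 100 µl saline by gavage from day 3 to day 60. Group M rats were separated for 180 min daily from day 2 to day 14 and received the same placebo. Group D rats were separated in the same way and received VSL#3, a mixture of probiotic bacteria, by gavage over the same period and had the same gavage volume. The rats are called C1 to C4, M5 to M8 and D9 to D12. Fits used 11 arrays, as in the methods of the study, and the values of D12 are given apart. Nothing in the labels says whether rats of a group came from different litters, so p-values measure the spread between these animals only.

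Every value is a log2 signal relative to the 75th percentile of its array, a percentile that lay between 1434 and 1953 fluorescence units. The lowest signal scored well above background lay between -8.02 and -7.46 on that scale. Groups C and M shared a slide but lay in different array rows, and Group D lay on another slide. Group and array row cannot be told apart for Group M vs Group C, nor group and slide for comparisons with Group D. Of 9 colonocyte markers with a probe, 8 were well above background on all 12 arrays, in keeping with the colon label. In whole tissue, fewer cells of a type and less RNA per cell cannot be told apart.

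Trypsins are serine proteases that pancreatic acinar cells make as inactive trypsinogens and release into the gut together with carboxypeptidases, elastases and lipases. Enteropeptidase activates them in the small intestine, and active trypsin cuts food proteins, the other zymogens and the protease-activated receptors on epithelial cells and nerves. In rodents the trypsinogen genes form a cluster within the T-cell receptor beta locus, and the mature enzymes are close in sequence, so the probe that reports a gene matters.

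The probes were therefore read through their RefSeq accessions as well as their names. The probe named Prss3 carries the accession that RefSeq now calls Prss3b. The gene that RefSeq now calls Prss3 is measured by a probe named LOC362347 (A_64_P050685). Try10 has 2 probes, and A_64_P088146 also lists the accession of Prss2, so signal of Try10 and Prss2 cannot be separated there. A further probe in the same stretch, A_42_P621514, is named ENSRNOT00000043527 and described as rCG28262-like, and no RefSeq gene matched its accessions. LOC362347 and the rCG28262-like gene were not on the list and were added after their values were seen.

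On rn4 chromosome 4, the probe of LOC362347 lies at chr4:69015353-69015412, the rCG28262-like probe at chr4:69023676-69023735, and the Try10 probes at chr4:69053166-69053225 and chr4:69055870-69055929. Together they span 40.6 kb. The probe named Prss3 lies at chr4:68672284-68672343 and that of Prss1 at chr4:69189018-69189077. Exon and intron positions were not given in the sources used here. The sequences of both Try10 probes are shown first, because the result turns on them. The longest run of bases they share is 6, and they lie apart on the chromosome.
A_64_P088146: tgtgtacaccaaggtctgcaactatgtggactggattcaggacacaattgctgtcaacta
A_44_P252623: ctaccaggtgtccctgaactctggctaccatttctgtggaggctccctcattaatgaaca

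The rCG28262-like probe is shown beside those of LOC312273 and LOC286960, other trypsin genes of the region, because all 3 read the same conserved stretch. Capitals mark the 17 bases that the 3 probes share.
A_42_P621514 (rCG28262-like): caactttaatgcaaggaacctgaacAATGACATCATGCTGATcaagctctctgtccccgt
A_44_P426433 (LOC312273): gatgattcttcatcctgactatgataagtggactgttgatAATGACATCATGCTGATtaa
A_44_P118695 (LOC286960): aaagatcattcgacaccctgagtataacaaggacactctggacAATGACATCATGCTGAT
LOC312273 and LOC286960 were well above background on 0 of 12 arrays, and the rCG28262-like probe on 6. The longest run that LOC362347's probe shared with any other probe of the array was 13 bases, with Ddx50. Probes were compared with probes only and not with transcripts, so these runs cannot show whether a probe also binds another trypsin transcript. Whether the probes report separate transcripts was not tested.

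With its probe A_64_P088146, Try10 was near background in Group C and well above it in every rat of Group M. The Group C rats read -7.15, -6.14, -6.84 and -7.59, and only C2 was well above background. The Group M rats read -0.99, -3.37, -2.17 and -2.24, with all 4 past it. The lowest Group M rat, M6, thus lay above the highest Group C rat. Group C averaged -6.93 ± 0.61 (SD, n = 4). Group M averaged -2.19 ± 0.97 (SD, n = 4), higher by 4.74 on the log2 scale or 26.7-fold. Because 3 of the 4 Group C rats were not above background, this fold rests on a baseline measured in 1 rat. Of 30351 probes with a value in all these rats, 4.18% had every Group M rat above every Group C rat, and since the trypsins were chosen on this contrast nothing is read from their place among them. Background correction by normexp with an offset, which lifts dim values, reduced the difference to 2.27.

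Group D was scattered for the same probe. D9 read -3.94, D10 -7.52, D11 -4.46 and D12 -0.71. D10 was not above background and fell within the range of Group C, D9 and D11 lay between Groups C and M, and D12 was the highest of all 12 rats. The mean of D9 to D11 was -5.31 ± 1.94 (SD, n = 3), which was 3.11 below Group M and 1.62 above Group C. With D12 in the fit these differences became -1.96 and 2.77, so 1 rat decides how far Group D stood from Group M. In all, 7 of the 8 separated rats and 1 of the 4 control rats were well above background.

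The second Try10 probe, A_44_P252623, was well above background on all 12 arrays. Its values were -5.99, -5.82, -5.46 and -6.07 in Group C. Those in Group M were -3.33, -4.90, -4.28 and -4.78, again without overlap. Group D read -5.09, -5.51, -5.46 and -3.05, with D12 the highest rat once more. The difference between Groups M and C was 1.51, or 2.85-fold, a smaller one than with the first probe. The baseline signal in Group C differed between the probes, and which transcript gives it was not tested.

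LOC362347, the RefSeq Prss3, showed the same pattern. In Group C it read -8.81, -8.88, -7.04 and -8.62, with only C3 well above background. In Group M it read -1.01, -3.29, -2.10 and -2.26, all well above background. As raw signal this was 3.64 to 13.6 fluorescence units in Group C against 171 to 899.6 in Group M. The log2 difference was 6.17, and with Group C set no lower than the lowest signal well above background the fold was 41.2. The log2 difference was 2.74 after normexp correction. Group D read -3.69, -8.93, -4.56 and -0.58, so D10 again lay at background and D12 again stood highest.

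The rCG28262-like probe, printed as 10 spots per array, was above background in 0 of 4 rats of Group C and in all 4 of Group M. Group C read -8.82, -8.64, -8.19 and -8.41, and Group M -2.94, -5.57, -4.14 and -4.42. Since Group C held no measured level, Group M was at least 11.4-fold higher. In Group D it read -5.97, -8.78, -7.06 and -2.60, and only D9 and D12 passed background.

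Within Groups M and D the rats took the same order in all 4 probes. In Group M it was M5, M7, M8, M6, and in Group D it was D12, D9, D11, D10. In Group C the order differed between the probes. There C2 was highest with A_64_P088146, and C3 with A_44_P252623, LOC362347 and the rCG28262-like probe. The distance between the highest and lowest rat of Group M was 2.38 and 1.57 with the Try10 probes, 2.28 with LOC362347 and 2.63 with the rCG28262-like probe. Over the 12 rats the 6 pairwise Pearson correlations of these probes ran from 0.89 to 0.98. The rats fall into low and high values and share group and slide, so these coefficients describe the rats and carry no p.

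**Figure D1:**
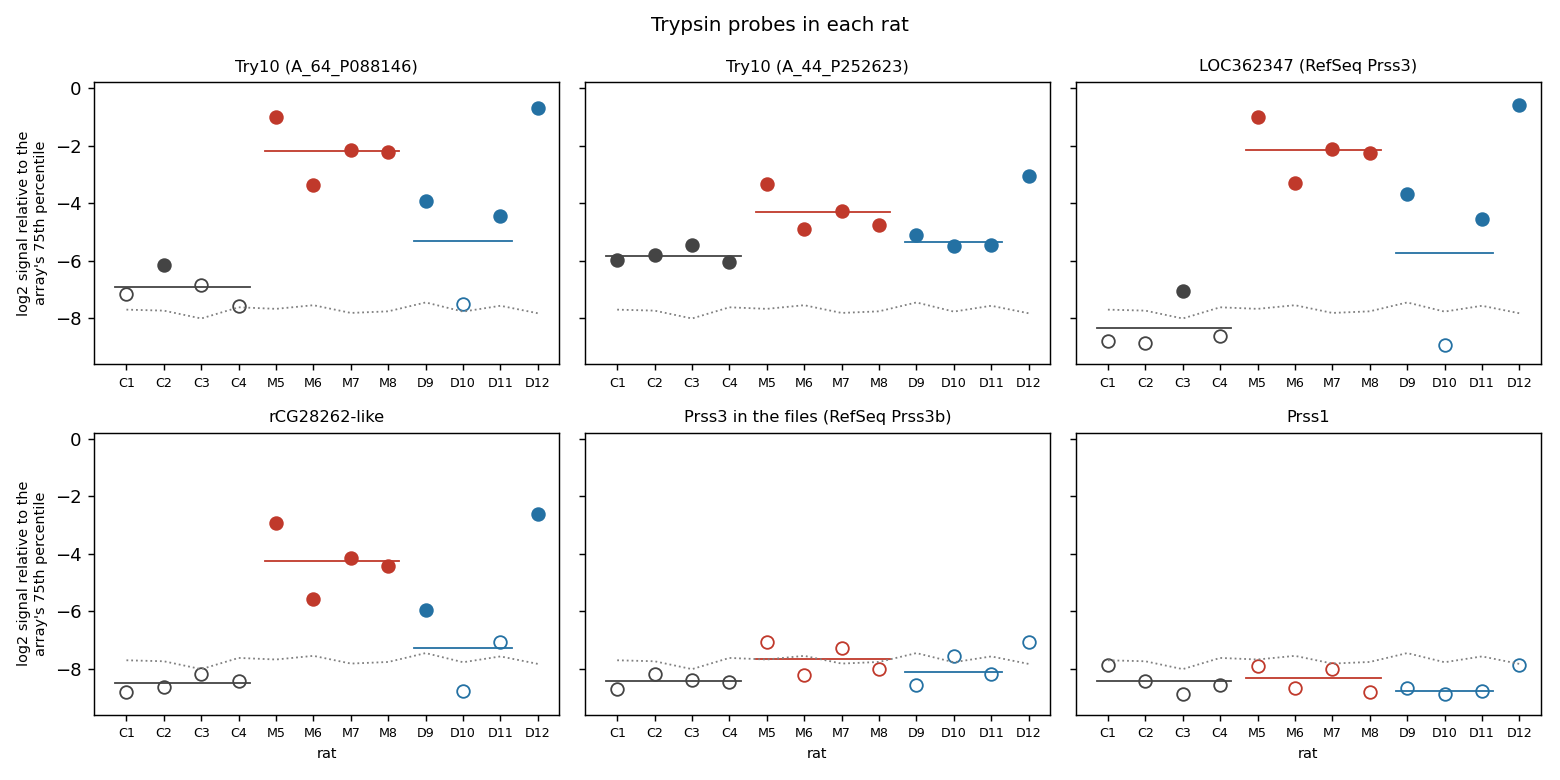
Log2 signal relative to the 75th percentile of the array (vertical axis) for 6 trypsin probes in each of the 12 rats (horizontal axis; Group C grey, Group M red, Group D blue). Filled points were well above background, open points were not, lines are means without D12, and the dotted line is the lowest signal well above background on each array. In the first 4 panels every Group M rat lies above every Group C rat, with D10 low and D12 high, while Prss3 as named in the files and Prss1 were above background in 0 rats.

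The other members named as trypsins were not detected. The probe named Prss3, today's Prss3b, read -8.69, -8.18, -8.38 and -8.45 in Group C and -7.08, -8.23, -7.29 and -8.01 in Group M. Group D read -8.56, -7.57, -8.19 and -7.09. It was well above background in 0 of 12 rats, and the groups overlapped. Prss1, a major trypsinogen of the pancreas, lay between -8.87 and -7.89 in Group C, between -8.80 and -7.90 in Group M and between -8.88 and -7.87 in all of Group D, again above background in 0 rats. No fold is given where both groups were below background. The description of trypsin genes as high in separated rats therefore applied to Try10 (with Prss2, which shares its probe) and, by accession, to Prss3, and not to the probes named Prss3 and Prss1.

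No acinar enzyme was called beside the trypsins. Of the 3 genes, 0 passed the limma fit over all probes (adjusted p at most 0.05 and at least 2-fold) in any of the 3 comparisons, and 0 reached an unadjusted p under 0.05. Over all probes, 0.165% passed that test in Group M vs Group C, 0.128% in Group D vs Group M and 0.00659% in Group D vs Group C. With shares this small, a short list would usually hold 0 calls, here and in the lists below. The shares with an unadjusted p under 0.05 were 22.7%, 21.6% and 5.97%.

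Cpa1, the carboxypeptidase A1 that trims aromatic and aliphatic residues from peptides, was above background in 0 of 12 rats. It lay between -8.38 and -7.14 in Group C and between -8.62 and -7.19 in Group M. Group D lay between -8.24 and -7.53. Its difference between Groups M and C was -0.11 (95% interval -0.95 to 0.73, limma adjusted p = 0.908).

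Pnlip, the triglyceride lipase of pancreatic juice, passed background in C1 alone, at -7.23. Group M lay between -8.92 and -7.34, and all of Group D between -8.62 and -8.37. The difference between Groups M and C was 0.26 (95% interval -0.68 to 1.20, limma adjusted p = 0.773).

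Cela2a, a pancreatic elastase, was the acinar member nearest to detection, above background in 3 of 4 Group C rats and in 1 of 4 Group M rats. Its Group C values were -6.42, -6.91, -7.22 and -6.16, and its Group M values -7.06, -7.03, -7.12 and -6.97. Group D read -6.39, -6.65, -6.89 and -6.80. The difference was -0.37 for Group M vs Group C (95% interval -0.84 to 0.11, limma adjusted p = 0.337), opposite in sign to Try10. For Group D vs Group M it was 0.40 (95% interval -0.11 to 0.91, limma adjusted p = 0.346). The 3 rats D9 to D11 lay above all of Group M, as 8.46% of all probes did, which is no result about Cela2a.

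Over the 12 rats, the Pearson correlation with Try10 (A_64_P088146) was -0.35 for Cpa1, -0.46 for Cela2a and 0.01 for Pnlip, against 0.98 for both LOC362347 and the rCG28262-like probe. Cpa1 was above background in 0 rats and Pnlip in 1, so their coefficients cannot show whether these genes tracked Try10. D12, the rat with the highest Try10 signal, read -8.10 for Cpa1, -6.80 for Cela2a and -8.62 for Pnlip.

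**Figure D2:**
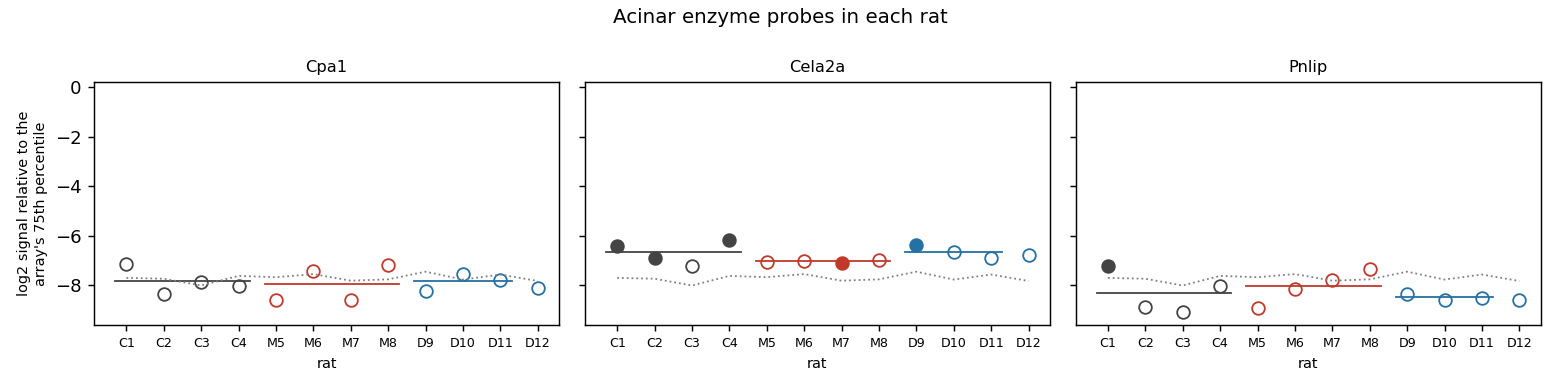
Log2 signal relative to the 75th percentile of the array (vertical axis) for Cpa1, Cela2a and Pnlip in each of the 12 rats (horizontal axis; Group C grey, Group M red, Group D blue), drawn on the scale of the trypsin panels. Filled points were well above background, lines are means without D12, and the dotted line is the lowest signal well above background. Cpa1 and Pnlip stay near the dotted line in all groups, and Cela2a lies slightly above it.

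A wider list held 23 further genes of pancreatic acinar enzymes and secretory products with a probe. Whether acinar cells were the source of their signal in colon was not tested. Of these, 13 were well above background on all 12 arrays and 8 on none. In each of the 3 comparisons 0 passed the limma fit. In Group M vs Group C 1 gene, a lower one, had an unadjusted p under 0.05, beside 22.7% of all probes. In Group D vs Group M 6 did, 3 higher and 3 lower, beside 21.6%. In Group D vs Group C 5 did, 3 higher and 2 lower, beside 5.97%, and no set test was run. The median difference between Groups M and C was 0.07, beside -0.01 over all probes. Leaving out rat M6 brought 2 genes past the test in Group M vs Group C. The same omission brought 3 past it when Group D was set against Group M. Gp2, a glycoprotein of secretory granule membranes, was among them in both comparisons, and Rnase1 in the second. The share of all probes past the test without M6 is not given here, so nothing is read from these counts.

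Among the genes of this list at background, Cpb1, the carboxypeptidase B, averaged -8.68 in Group C and -8.69 in Group M. Amy2, the pancreatic amylase, averaged -8.04 and -7.97. Cela3b and Pnliprp1 were also above background in 0 rats, as was Spink1, a trypsin inhibitor of the pancreas.

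Other genes of the list were well above background in every rat. Ctrb1, a chymotrypsinogen, averaged -1.99 ± 0.22 in Group C and -1.89 ± 0.16 in Group M (SD, 4 rats each), and Ctrl, a chymotrypsin-like protease, averaged -4.88 and -4.87. Cela1 was the only gene of the list with an unadjusted p under 0.05 in Group M vs Group C. It differed by -0.58 (limma adjusted p = 0.106), which did not pass.

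Bhlha15, also called Mist1, a transcription factor of acinar and other secretory cells including plasma cells, was the 1 gene called among 6 acinar transcription factors. It read -2.72, -2.68, -2.66 and -2.71 in Group C and -1.54, -1.73, -1.33 and -1.37 in Group M. Every Group M rat lay well above a very narrow Group C, and 4.18% of all probes had every Group M rat above every Group C rat. In Group M vs Group C, 0.165% of all probes were called. The rise was 1.20 ± 0.12 (SE), or 2.30-fold, with a limma adjusted p of 0.00682. Group D read -2.17, -2.53, -2.51 and -2.32, and its difference from Group M of -0.91 (limma adjusted p = 0.0489) was under 2-fold and so not called. With the replicate number as a block the adjusted p for Group M vs Group C was 0.0881. Ptf1a, the factor that acinar genes depend on in the pancreas, was above background in 0 rats. Of the 6 factors, 2 were higher and 2 lower in Group M vs Group C at an unadjusted limma p under 0.05. Over all probes that share was 22.7% in either direction.

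Genes that act on trypsin or respond to it were present in the tissue. Of 18 activators, receptors and inhibitors with a probe, 12 were well above background in all rats. In any comparison 0 of them passed the test, beside at most 0.165% of all probes. F2rl1, the protease-activated receptor that trypsin cleaves, averaged -1.36 ± 0.35 in Group C and -1.89 ± 0.36 in Group M (SD, 4 rats each), with a difference of -0.53 (limma adjusted p = 0.206). F2r, the thrombin receptor, differed by 0.76 with a limma adjusted p of 0.0460 and stayed under 2-fold. Spink4, a trypsin inhibitor homologue of goblet cells, averaged -6.97 ± 0.37 in Group C and -4.30 ± 2.10 in Group M (SD, 4 rats each), with a difference of 2.67 (limma adjusted p = 0.124).

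Of 29 other trypsin-like serine proteases, 0 passed the test in any comparison, beside at most 0.165% of all probes, so nothing is read from this count. Prss8, St14 and Tmprss2, the membrane-bound proteases of gut epithelium, were well above background in all rats. St14 averaged 4.43 in Group C and 4.56 in Group M. Prss22 came closest to the trypsins in size, with a difference of 2.27 between Groups M and C, but its Group M rats spread widely (SD 2.45, n = 4) and it did not pass (limma adjusted p = 0.203).

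The probes with a large difference lay close together. Between the outermost trypsin probes, 1102 kb apart on rn4 chromosome 4, lay 28 probes, 11 of them for trypsins and 7 for T-cell receptor beta segments. The ends of the 40.6 kb stretch were set by the 4 probes with a large difference, so their place inside it follows from its definition. No other of the 28 probes lay in that stretch. Of the 7 trypsin probes outside it, 6 were above background on 0 arrays and 1, Tryx5, on 1 array. Their differences between Groups M and C lay between -0.28 and 0.77. The T-cell receptor beta probes differed by -0.04 to 1.19. Of the 7, 0 had every Group M rat above every Group C rat, beside 4.18% of all probes, so nothing is read from that count. Of 19 genes listed as neighbours of the trypsins, 0 passed the test in any comparison, beside at most 0.165% of all probes.

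**Figure D3:**
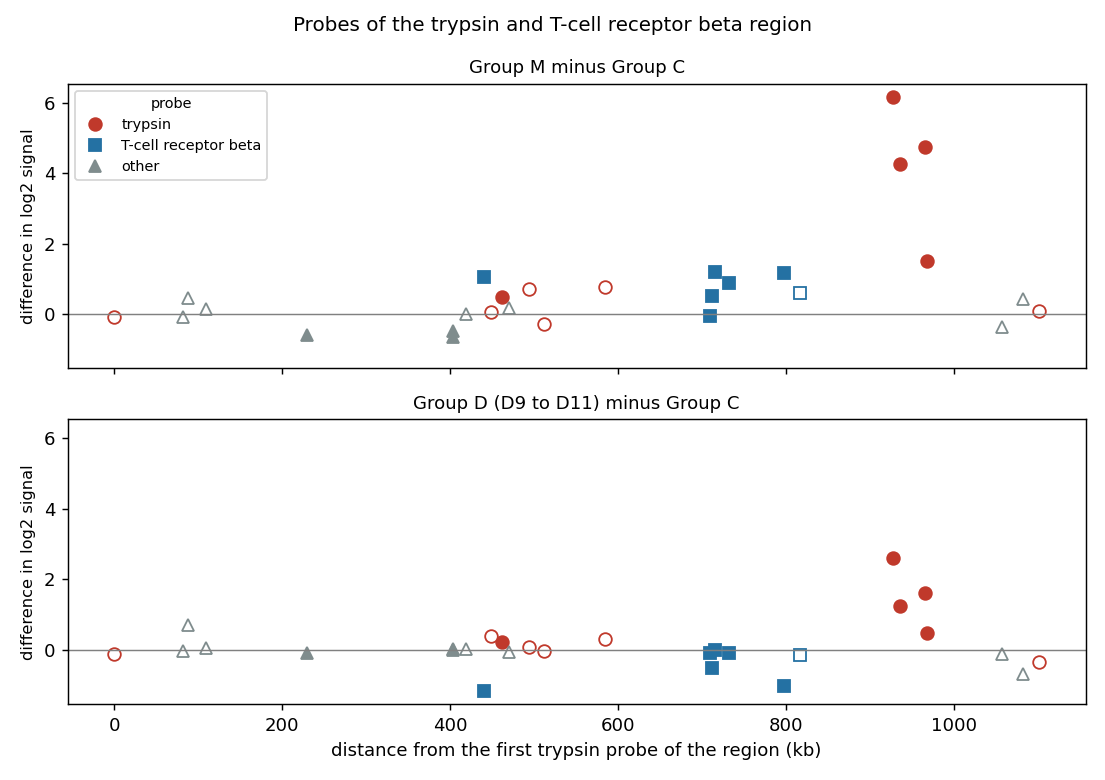
Difference in mean log2 signal (vertical axis) of each of 28 probes against distance from the first trypsin probe of the region in kb (horizontal axis), for Group M minus Group C (upper panel) and D9 to D11 minus Group C (lower panel). Circles are trypsins, squares T-cell receptor beta segments and triangles other genes, and open marks were above background on no array. The 4 trypsin probes at the right stand at 1.51 to 6.17 in the upper panel, and the other trypsin probes stay between -0.28 and 0.77.

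Markers of other cells moved with some rats or groups, and their part in the trypsin result was not tested. The summed level of 10 T cell markers, in units of the 75th percentile, was 7.94 in C2, 7.19 in M5, 4.84 in M7, 5.04 in M8 and 14.5 in D12, and between 0.966 and 1.88 in the other rats. The 6 B cell markers stood high in the same 5 rats, at 5.01 to 14.8, and between 0.128 and 0.672 elsewhere. All 10 T cell markers and 2 of the 6 B cell markers were above background on every array, and 0 on either list passed the test. C2 was high in both lists and had Try10 (A_64_P088146) at -6.14, the highest of Group C and its only value above background. The other trypsin probes did not put C2 highest in Group C. On A_44_P252623 it read -5.82, below C3 at -5.46. With LOC362347 C2 read -8.88, the lowest of Group C, and with the rCG28262-like probe -8.64, neither above background. In Group M, M5, M7 and M8 were high in both lists. M6, with a T cell sum of 0.966, was the lowest of Group M in both lists and in Try10, at -3.37. D9, with a T cell sum of 0.970, had Try10 at -3.94. D10 and D11 had higher T cell sums than M6 and D9, at 1.88 and 1.54, but lower Try10, at -7.52 and -4.46. D12 was highest in both lists and in Try10.

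Macrophage markers were high in the same 5 rats. The summed level of 7 markers was 57.5 in C2, 71.3 in M5, 76.4 in M7, 62.4 in M8 and 60.1 in D12, and between 24.1 and 31.8 in the other rats, M6 among them at 31.8. In Group M vs Group C, 3 of the 7 were higher at an unadjusted p under 0.05, beside 22.7% of all probes in either direction. In Group D vs Group M all 7 were lower at that level, beside 21.6% of all probes in either direction, and 0 passed the adjusted test in either comparison. The 7 neutrophil markers with a probe summed to 3.72 in M7 and to between 0.195 and 0.658 in the other rats, with 0 past the adjusted test. The lists outside the pancreatic enzymes held 196 genes with a probe. Without M6, 26 of them passed in Group M vs Group C in place of 1. When Group D was set against Group M, 29 passed in place of 0. The share of all probes that passed without M6 is not given here, so nothing is read about these lists. Over the 12 rats, the Pearson correlation of the log2 sums with Try10 (A_64_P088146) was 0.67 for macrophages, 0.65 for B cells, 0.60 for T cells, 0.58 for neutrophils and 0.30 for mast cells. Spearman's rho was 0.63, 0.59, 0.41, 0.69 and 0.38 in the same order.

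Mast cells, which hold tryptases and chymases of the same protease fold, also differed between the groups. The summed level of 11 mast cell markers was 3.70 to 4.53 in Group C, 6.31 to 8.20 in Group M and 4.99 to 11.7 in Group D, so Groups C and M did not overlap. Of single probes, 4.18% had every Group M rat above every Group C rat, and no such share was computed for sums. Of the 11 markers, 10 were higher and 1 lower in Group M at an unadjusted p under 0.05, beside 22.7% of all probes in either direction, and 0 passed the adjusted test. Tpsab1, a tryptase, averaged -5.50 in Group C, -2.12 in Group M and -5.39 in D9 to D11. Over the 12 rats its Pearson r with Try10 (A_64_P088146) was 0.81 and its Spearman's rho 0.85. For Mcpt1, another mast cell marker, they were 0.39 and 0.36. Tpsab1 took the order M5, M7, M8, M6 in Group M, as the trypsin probes did. Its Group D order was D12, D11, D9, D10, which differed from theirs, and D12 read -3.74. Among 22427 probes well above background on at least 4 arrays, Tpsab1 ranked 558 by Pearson r with Try10 (A_64_P088146). The mast cell sum did not take the trypsin order in Group M, because M6, at 6.98, was lower than M5 only. D10 had the highest mast cell sum, 11.7, with Try10 at -7.52 on A_64_P088146, not above background, and at -5.51 on A_44_P252623, the lowest of Group D.

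Among other tissues that secrete proteases, 0 of 6 salivary gland markers, 0 of 9 male accessory gland markers and 0 of 10 small intestine and Paneth cell markers passed the test in any comparison. The same was true of 10 pancreatic islet markers. At most 0.165% of all probes passed in any comparison. Of the salivary and of the accessory gland markers, 4 each were above background on no array. These counts cannot show whether such tissue was present.

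**Figure D4:**
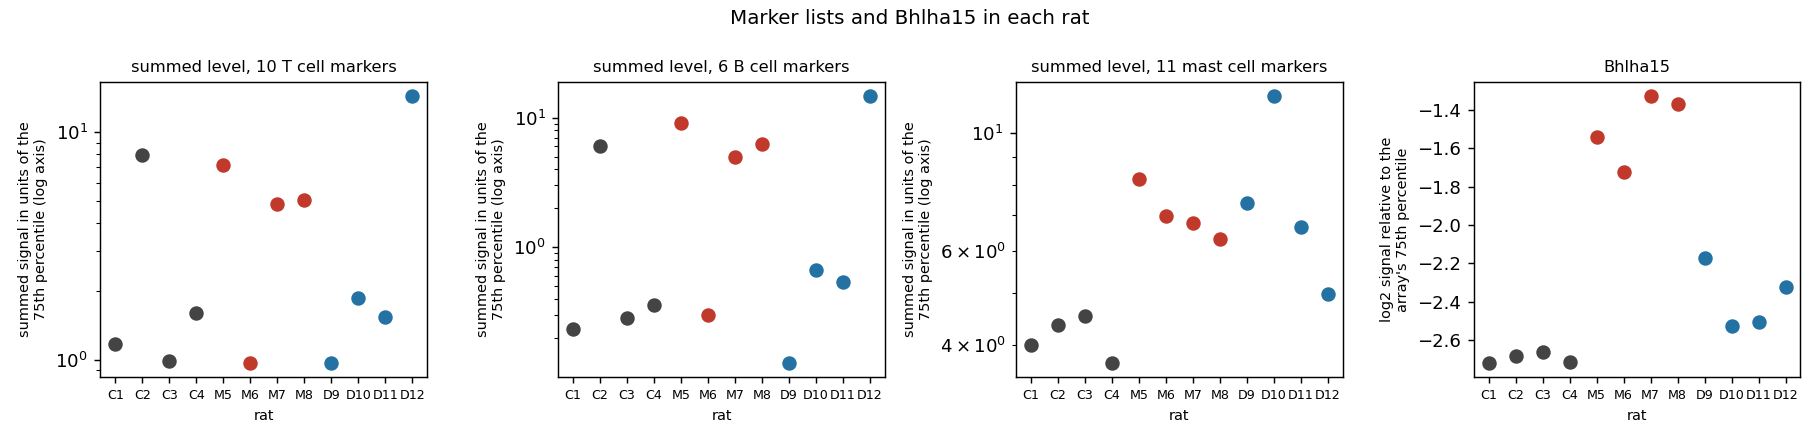
Summed signal of T cell, B cell and mast cell markers (vertical axes, in units of the 75th percentile, log scale) and log2 signal of Bhlha15 (right panel) in each of the 12 rats (horizontal axis; Group C grey, Group M red, Group D blue). The lymphoid sums are high in C2, M5, M7, M8 and D12 and low in the other rats, M6 and D9 among them.

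Of 22427 other probes well above background on at least 4 arrays, those most like Try10 over the 12 rats were the rCG28262-like probe and LOC362347, with Pearson r of 0.98 each. The named genes that followed were Naf1 (0.92), a factor of small nucleolar particle assembly, Lgals3bp (0.92), a secreted galectin-binding glycoprotein, Camkk1 (0.92), a calmodulin-dependent kinase kinase, and Exosc2 (0.92), an exosome subunit. Spearman's rho for these 4 lay between 0.91 and 0.94. The second Try10 probe ranked 14 with r of 0.91. For Prss3 as named and for Prss1 no likeness is given, because both stayed at background. With so many probes and 12 rats that share group and slide, the coefficients are a description and carry no p.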

How the data were processed

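Colon RNA of 12 rats was measured on Agilent rat whole genome arrays of 1 colour, 1 array per rat. The deposited scanner files hold signal intensities from Feature Extraction software, background-subtracted by the authors' scanner protocol, with probe positions on rn4. The deposited value table holds the authors' processed log2 values, used as an alternative. For the main values, outlier and control spots were left out, log2 of the processed signal was taken relative to the 75th percentile of the array, and spots of a probe were averaged. Of 62976 spots, 4259 were controls. limma 3.58.1 in R 4.3.3 fitted 3 groups in 1 model on 11 arrays, without D12, with Benjamini-Hochberg adjustment over 30367 probes. The fit was tested on simulated data. The number of arrays limits the precision.

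All probes of the listed genes were described. For other genes the probe with the highest mean signal was used, and genes of the fixed lists could be named, those past the test always. For likeness, the 5 best named genes were given. The members and gene lists were chosen with earlier results of these data known. Alternatives were background correction (normexp, offset 50), quantile and median scaling, the authors' table, outlier spots, dim probes, all 12 arrays, a replicate block, fits of the compared groups alone, averaging of probes, each rat left out and the methods' criterion. Current gene names came from RefSeq (GRCr8), of which no coordinates are used.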

Additional observations from a re-analysis of the deposited data

Results flagged for a closer look

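Of 27 groups of 4 rats examined for a rat far from the others, 2 held one, where chance alone gives about 1 in 20. With LOC362347, C3 read -7.04 and lay far above the other Group C rats, the gap being 0.860 of the range. With the Try10 probe A_44_P252623, D12 read -3.05 and lay far above D9 to D11, the gap being 0.832 of the range. D12 took no part in the fits, and 4 probes rose in it above every Group C rat and above background: both Try10 probes, at -3.05 and -0.71, the rCG28262-like probe at -2.60 and LOC362347 at -0.58.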

How the results depend on the processing

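The median difference over the 3 trypsin genes with a probe fell on the probe named Prss3 in all 3 comparisons. That probe was above background in 0 rats, so the median measures no trypsin level, and after normexp correction it was 0.0918 for Group M vs Group C. With members matched by RefSeq accession, a choice made after seeing the data, the medians were those of Try10 (A_64_P088146), at 4.74, -3.11 and 1.62 for Group M vs Group C, Group D vs Group M and Group D vs Group C. The 4 probes of the 40.6 kb stretch kept a higher mean in Group M than in Group C under every alternative run. For Try10 (A_64_P088146) that difference lay between 2.27 and 5.13, the value over both Try10 probes being 3.12. The number of acinar members called was 0 under every alternative that could be run, and their limma adjusted p for Group M vs Group C never fell under 0.223. The dim-probe filter left no acinar member to test.

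Of the other pancreatic acinar genes, leaving out each rat gave 0 to 2 calls in Group M vs Group C, 0 to 3 in Group D vs Group M (both highest without M6) and 0 to 1 in Group D vs Group C (Pnliprp2 without D9). The criterion of the study's methods gave 2 in the last comparison. Over the other lists the calls in Group M vs Group C were 1, with 2 in a fit of the compared groups alone and 1 to 26 with each rat left out. There were 3 calls without C2, 2 without D10 and 26 without M6. In Group D vs Group M the calls were 0 to 29, with 29 without M6. These lists held 196 genes with a probe, and the share of all probes passing in each such fit is not given here. The deviations of same-numbered rats of different groups had correlations of both signs, from -0.72 to 0.58. These give no sign that the numbers pair rats, but with so few rats they cannot exclude it. With the replicate block the pancreatic calls stayed 0 and those of the other lists in Group M vs Group C fell from 1 to 0, Bhlha15 being lost. Depth is not defined for arrays, and signals near background limit Cpa1, Pnlip, Prss1 and the probe named Prss3.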
